A study of Mus musculus with 7 samples.

Results

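The 53 genes described here encode the proteins that mark replication origins, open and copy DNA at the fork, and supply the nucleotides for it. They were chosen by gene symbol from a list of replication genes, and all 53 were found among the 16143 genes of the deposited tables. All 53 also passed the filter on low values that left 12456 genes for testing. The cells came from ICR mouse retinas taken at embryonic day 17.5, which received plasmid DNA by electroporation and were kept as explants in culture for 2 days. Every retina also received a plasmid for EGFP, a green fluorescent protein, and only EGFP-positive sorted cells were sequenced, so both groups are the mixture of retinal cells that took up DNA. The 3 control libraries came from retinas given a control plasmid, and the 4 shKmt2f libraries from retinas given a plasmid for a short hairpin RNA against Kmt2f, another name of Setd1a. Setd1a is an enzyme that methylates lysine 4 of histone H3. The hairpin's sequence and the promoter that drives it are not given in the sources used here, nor is whether retinas were pooled or whether each library came from a separate litter, so p-values measure only the spread between these libraries.

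Replication is prepared in G1 phase, when the origin recognition complex (ORC) binds DNA and, with Cdc6 and Cdt1, loads the ring-shaped helicase Mcm2-7. In S phase the kinase Cdc7 with Dbf4 helps to add Cdc45 and the GINS complex to that ring, which activates it, and DNA polymerases alpha, delta and epsilon then copy the strands with the sliding clamp PCNA. In the embryonic retina the dividing cells are the progenitors, and most neurons have left the cell cycle, so the transcripts of S phase mark the dividing part of the tissue. Many genes of this system are known targets of E2F transcription factors.

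Values are TPM, a transcript abundance scaled to length and library, summed over all transcripts of a gene, and a fold change is the difference shKmt2f minus control on the log2(TPM + 1) scale from limma with Benjamini-Hochberg adjustment over all 12456 genes. A gene was called at an adjusted p under 0.05, and ± gives the SD over 3 control and 4 shKmt2f libraries. The longest Setd1a transcript stood at 0.767, 0.959 and 0.764 TPM in the control libraries and at 0.407, 0.328, 0.374 and 0.432 TPM in the shKmt2f libraries, 46.4% of control (two-sided exact permutation test on log2(TPM + 0.1), p = 0.0286, the smallest that 3 against 4 libraries allow). Between 11840 and 12318 genes reached 1 TPM in a library; the number of reads behind the values is unknown. Control replicate 2 stood apart: over the log2 values of all tested genes, a description across genes, it correlated at 0.978 with shKmt2f replicate 3 and at 0.973 and 0.967 with control replicates 1 and 3. The calls are therefore also given without it.

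The promoters of 44 of the 53 genes were matched by symbol in the RefSeq table (GRCm38.p6), which holds 250 bases before and 50 after each start site. Exact letter strings of the E2F motif (TTTCCCGC, TTTCGCGC, TTTGCCGC and TTTGGCGC) were searched on both strands, as was CCAAT, the core of the NF-Y motif. Some genes have several promoters in the table, and a gene was counted if any of them held a string. At least 1 of the E2F strings stood in a promoter of 16 of the 44 genes (36.4%), against 412 of the 8529 tested genes with a promoter in the table (4.83%). Per promoter, 744 of all 32851 held one (2.26%). CCAAT stood in a promoter of 25 of the 44 genes (56.8%), against 43.9% of the tested genes and 37.4% of all promoters. The E2F strings stood in 3 of the 10 matched genes called lower, in 1 of the 2 called higher and in 12 of the 32 not called. A match is a string of letters and not a measured binding site. The 5 promoters below are shown because they belong to called genes: 4 are the called genes that hold an E2F string and the last is that of Rrm2, the member with the largest fold change, which holds none. Capitals mark the E2F strings. In Mcm6 (minus strand, chr1:128359656-128359955) they start at bases -110, -106 and -47 from the start site, the first 2 overlapping. In Pole2 (minus strand, chr12:69228141-69228440) the string starts at base 10, in Pold1 (minus strand, chr7:44548766-44549065) at base 39 and in Orc3 (minus strand, chr4:34614893-34615192) at base -41. The window of Rrm2 lies on the plus strand at chr12:24708004-24708303 and holds 1 CCAAT.
Mcm6: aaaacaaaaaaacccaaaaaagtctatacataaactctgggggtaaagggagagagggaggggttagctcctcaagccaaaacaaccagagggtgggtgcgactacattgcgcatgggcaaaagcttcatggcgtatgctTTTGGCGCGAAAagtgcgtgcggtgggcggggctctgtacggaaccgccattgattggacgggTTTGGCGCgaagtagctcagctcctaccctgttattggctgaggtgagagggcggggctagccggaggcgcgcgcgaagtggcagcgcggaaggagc
Pole2: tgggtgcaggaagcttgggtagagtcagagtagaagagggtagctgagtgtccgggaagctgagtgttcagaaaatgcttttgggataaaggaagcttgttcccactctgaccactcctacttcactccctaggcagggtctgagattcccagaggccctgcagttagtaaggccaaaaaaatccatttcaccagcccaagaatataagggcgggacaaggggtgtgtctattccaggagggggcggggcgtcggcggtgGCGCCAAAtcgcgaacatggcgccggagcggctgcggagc
Pold1: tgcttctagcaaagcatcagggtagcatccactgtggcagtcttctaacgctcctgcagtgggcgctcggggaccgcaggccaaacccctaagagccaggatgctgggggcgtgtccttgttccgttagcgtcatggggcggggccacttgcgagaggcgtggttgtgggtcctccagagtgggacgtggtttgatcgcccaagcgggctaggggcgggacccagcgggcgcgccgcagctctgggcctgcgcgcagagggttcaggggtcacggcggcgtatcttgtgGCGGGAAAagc
Orc3: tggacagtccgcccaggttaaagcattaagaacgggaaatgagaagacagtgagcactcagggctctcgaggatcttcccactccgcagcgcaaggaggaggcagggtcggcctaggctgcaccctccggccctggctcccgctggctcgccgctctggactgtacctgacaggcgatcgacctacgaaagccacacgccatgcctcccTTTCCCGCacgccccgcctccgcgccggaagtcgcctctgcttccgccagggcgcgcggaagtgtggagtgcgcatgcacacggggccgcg
Rrm2: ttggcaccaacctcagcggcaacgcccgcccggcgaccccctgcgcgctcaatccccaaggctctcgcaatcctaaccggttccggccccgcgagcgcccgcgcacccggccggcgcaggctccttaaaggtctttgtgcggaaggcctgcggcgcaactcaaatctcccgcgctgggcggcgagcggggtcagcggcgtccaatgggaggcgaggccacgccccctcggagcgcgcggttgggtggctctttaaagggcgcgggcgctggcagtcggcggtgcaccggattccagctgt

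In the shKmt2f libraries 11 of the 53 genes were lower and 2 were higher past the threshold. The 11 were Rrm2, Pole2, Gins2, Pold1, Dut, Pold2, Chaf1b, Mcm6, Tyms, Cdc45 and Pcna, and the 2 were Orc2 and Orc3. Among all tested genes 3.69% were called lower and 10.4% higher. The group ranges did not overlap in 22 members that were lower and 4 that were higher, against 9.67% and 19.2% of all tested genes. The median fold change was -0.26 over the 53 genes and 0.09 over all tested genes. A negative value was found for 42 of the 53 (79.2%), against 40.7% of all tested genes. The fold changes ranged from -1.02 (Rrm2) to 0.96 (Orc4), with ORC genes at the upper end and genes of nucleotide supply and polymerases at the lower. These are bulk samples, in which fewer cells of a type and less RNA per cell cannot be told apart.

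**Figure D1:**
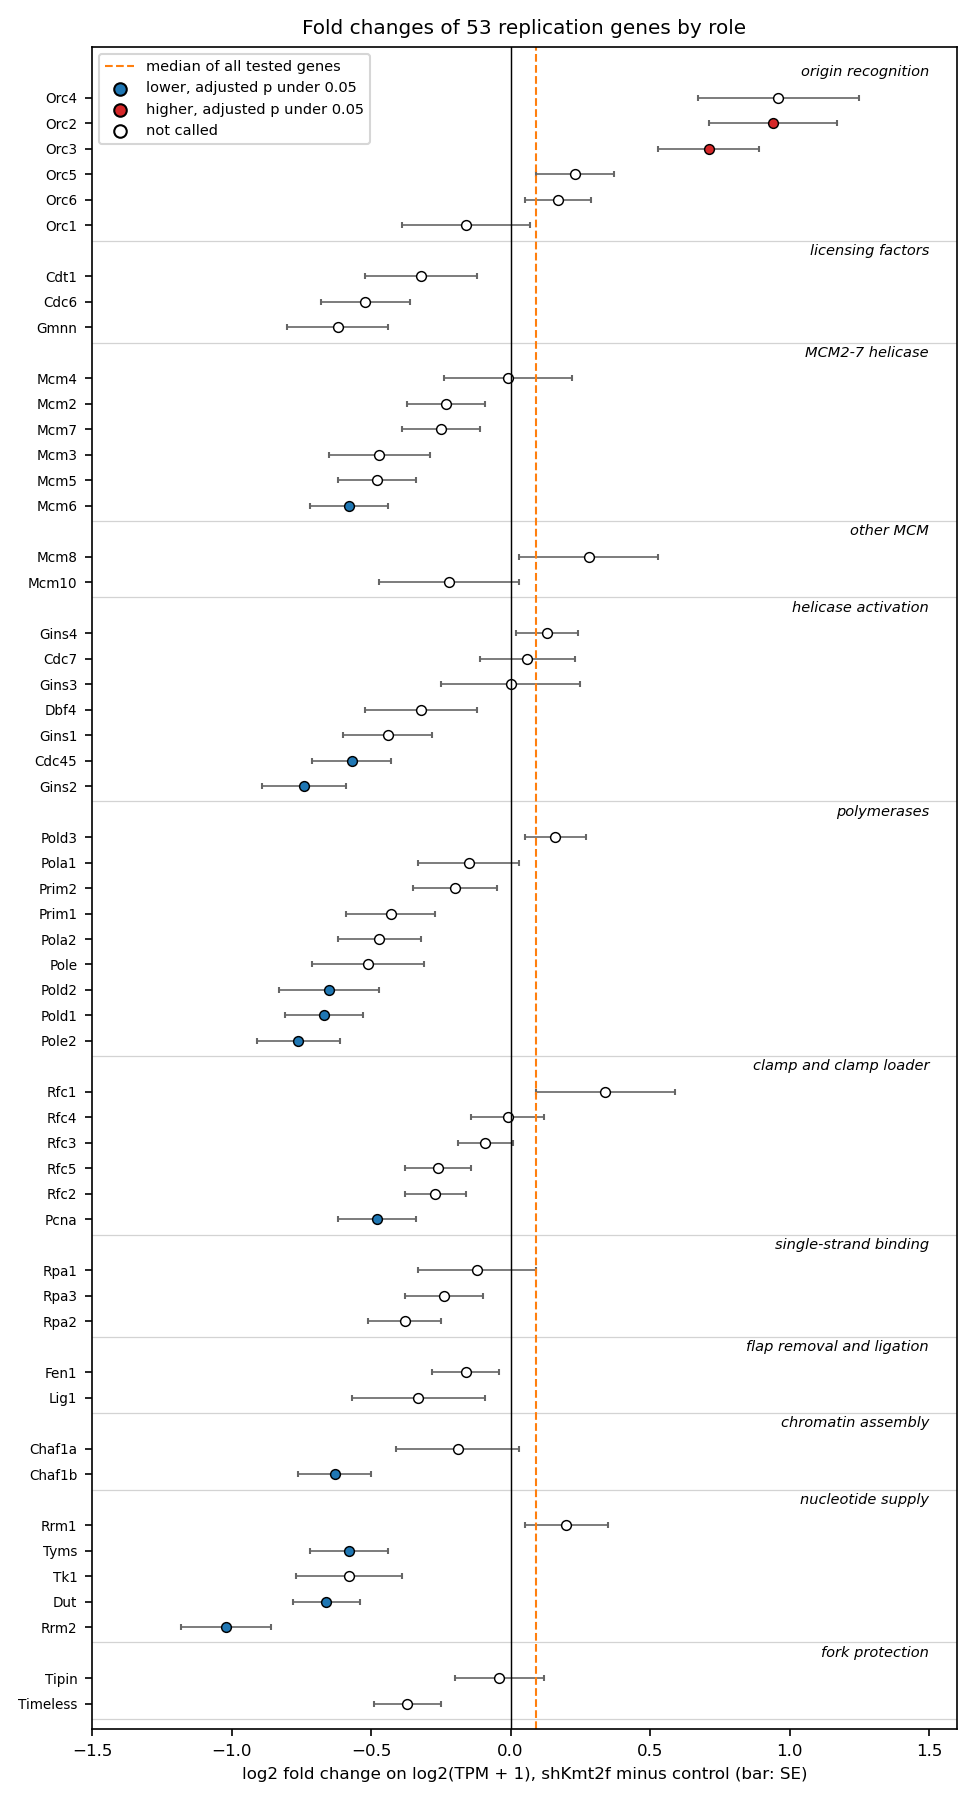
Fold change of each of the 53 genes (x axis, shKmt2f minus control on the log2(TPM + 1) scale; bars are standard errors), grouped by role; filled points are called genes and the dashed line is the median of all tested genes, 0.09. The 11 called lower (blue) lie between -1.02 and -0.48, and the 2 called higher (red) are ORC genes.

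The origin recognition complex went against the direction of most members. Of its 6 genes 2 rose and none fell, against 10.4% and 3.69% of all tested genes, and the median fold change was 0.47. Orc2 (chromosome 1, 58462771-58505109, minus strand) was at 13.5, 26.4 and 12.9 TPM in the control libraries and at 33.9, 33.0, 28.6 and 36.0 TPM in the shKmt2f libraries. All 4 shKmt2f libraries were above all 3 controls, and control replicate 2 was the nearest to them. The fold change was 0.94 (SE 0.23, adjusted p = 0.037). Orc3 (chromosome 4, 34570796-34614944, minus strand), which pairs with Orc2 in the core of the complex, stood at 29.0, 49.9 and 34.0 TPM in controls and 63.7, 65.0, 56.7 and 57.5 TPM in shKmt2f libraries, a fold change of 0.71 (SE 0.18, adjusted p = 0.0364). Its groups did not overlap either. Orc4, an ATP-binding subunit, measured 42.6, 107 and 44.1 TPM in controls and 114, 119.9, 111 and 113 TPM in shKmt2f libraries, with a fold change of 0.96 (SE 0.29) that missed the threshold (adjusted p = 0.0575). In all 3 genes the second control library was the highest control. Without control replicate 2 the fold changes were 1.25 for Orc2, 0.93 for Orc3 and 1.38 for Orc4, and all 3 were called (adjusted p = 0.000991, 0.0019 and 0.000356), in a fit that called 19.7% of all tested genes higher. Without any 1 of the other 6 libraries none of the 3 was called. Orc4 was called higher when only coding transcripts were summed, when transcripts were weighted by length and with the replicate number as a block. These fits called 13.4%, 12.3% and 8.38% of all tested genes higher. Orc5 (0.23), Orc6 (0.17), both negative after the GC correction, and Orc1 (-0.16), the subunit whose level is known to follow the cell cycle, were not called and their groups overlapped.

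The mean GC content of the transcripts was 38.4% for Orc4, 42.0% for Orc3 and 49.4% for Orc2. After a correction of each library for a trend with GC content, the fold change of Orc3 was 0.18 (adjusted p = 0.24), that of Orc4 0.28 (adjusted p = 0.215) and that of Orc2 0.82 (adjusted p = 0.0521). With GC content corrected, 17 members were called lower, against 5.14% of all tested genes, and 0 higher, against 4.92%. Of the 11 genes called lower on the values as deposited, Tyms and Pold2 were not among these 17. With GC content and length corrected, 20 members were lower and only Orc2 was higher (adjusted p = 0.0487), against 5.48% and 5.19% of all tested genes, and Tyms and Pold2 were again not called. The fold changes of Orc3 and Orc4 thus moved with GC content, and that of Orc2 moved little.

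**Figure D2:**
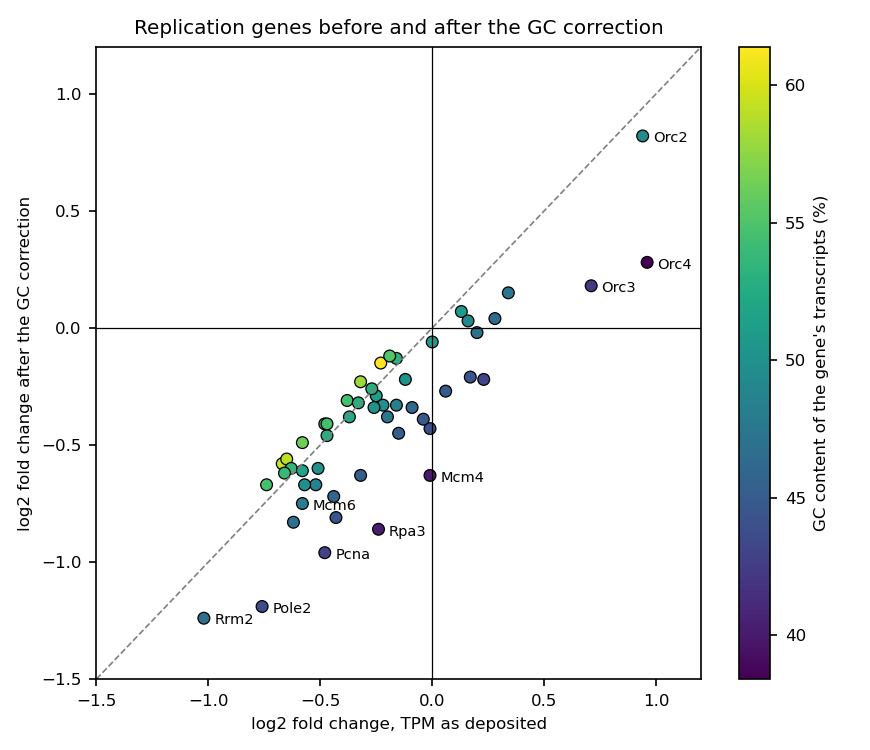
Fold change of each of the 53 genes as measured (x axis) against the value after the GC correction (y axis), both shKmt2f minus control in log2 units. Orc3 and Orc4 move from 0.71 and 0.96 to 0.18 and 0.28, while Rrm2 lies at -1.02 and -1.24.

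None of the 3 licensing factors was called, and all 3 had negative fold changes (median -0.52), against 40.7% of all tested genes. Gmnn encodes geminin, which binds Cdt1 and blocks renewed licensing in S and G2 phase. It measured 44.7, 46.1 and 40.0 TPM in controls and 20.6, 30.5, 27.3 and 36.0 TPM in shKmt2f libraries, without overlap, and its fold change of -0.62 (95% interval -1.03 to -0.20) had an adjusted p of 0.0546. Cdc6, which loads Mcm2-7 together with Cdt1, was at 6.47, 6.08 and 6.26 TPM in controls and 3.60, 5.30, 3.90 and 3.67 TPM in shKmt2f libraries, also without overlap (-0.52, adjusted p = 0.0597). Cdt1 itself overlapped between the groups (-0.32, adjusted p = 0.31). The summed TPM of the 3 genes was 77.3 to 82.4 in controls and 47.1 to 70.0 in shKmt2f libraries, with shKmt2f replicate 2 the highest of the 4. After the GC correction Gmnn (-0.83, adjusted p = 0.0275) and Cdc6 (-0.67, adjusted p = 0.0264) were called lower.

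Of the 6 subunits of the Mcm2-7 ring, which unwinds DNA, only Mcm6 was called, against 3.69% of all tested genes called lower. Mcm6 (chromosome 1, 128331590-128359664, minus strand) was at 77.1, 109 and 89.8 TPM in controls and 55.8, 65.4, 57.5 and 64.4 TPM in shKmt2f libraries, 66.1% of control (-0.58, SE 0.14, adjusted p = 0.0319). Every control library was above every shKmt2f library. Mcm5, which with Mcm2 forms the gate of the ring, stood at 38.7, 42.5 and 47.3 TPM in controls and 27.8, 36.7, 27.9 and 30.1 TPM in shKmt2f libraries, without overlap (-0.48, adjusted p = 0.0517). The other 4 overlapped: Mcm3 had a fold change of -0.47, Mcm7 of -0.25, Mcm2 of -0.23 and Mcm4 of -0.01 (95% interval -0.54 to 0.52). All 6 fold changes were thus negative, against 40.7% of all tested genes, with a median of -0.36. That of Mcm4, however, took the opposite sign under some alternatives (up to 0.23 without control replicate 2). Mcm4 was the lowest of the 6 in GC content (40.1%), and its fold change was -0.63 after the GC correction (adjusted p = 0.048). The leading coding transcripts of at least 600 bases, a choice made after the values were seen, gave -0.56 for Mcm6 (from 47.5, 63.3 and 56.7 TPM to 34.5, 41.7, 34.2 and 38.8 TPM), -0.52 for Mcm5 and 0.01 for Mcm4, close to the values summed per gene. Of the other MCM genes, Mcm8, which acts in recombination, and Mcm10, a helicase cofactor, neither was called (0.28 and -0.22). Mcm8 had the larger fold change of the pair and measured 1.62, 4.21 and 2.32 TPM in controls and 2.53, 3.36, 3.35 and 4.23 TPM in shKmt2f libraries, with overlap.

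**Figure D3:**
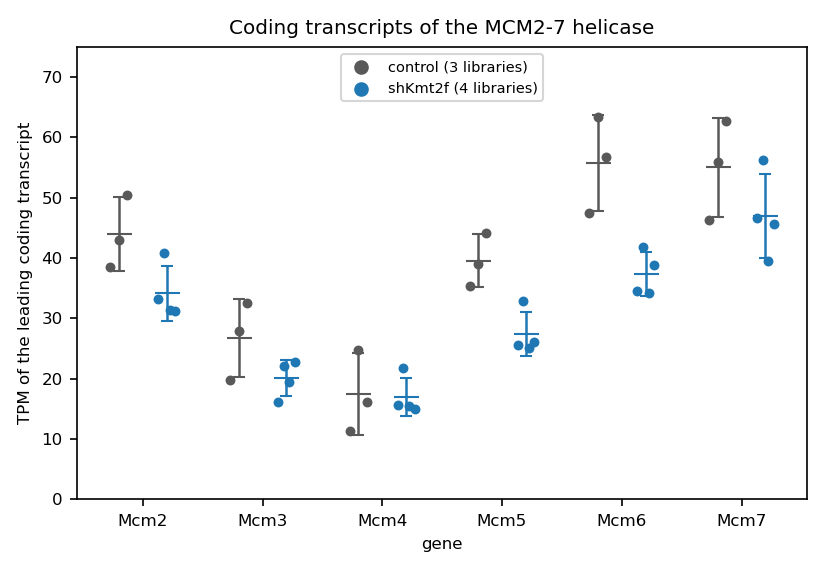
TPM of the leading coding transcript of each Mcm2-7 subunit in every library (y axis), for 3 control and 4 shKmt2f libraries; horizontal lines are group means and bars the SD. The groups are apart for Mcm5 and Mcm6 and overlap for the other 4 subunits.

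Of the 7 genes that activate the helicase 2 fell, against 3.69% of all tested genes. Gins2 (chromosome 8, 120578633-120589304, minus strand) encodes a subunit of GINS and measured 20.1, 24.6 and 19.1 TPM in controls and 11.3, 11.3, 11.9 and 14.8 TPM in shKmt2f libraries, 58.0% of control (-0.74, SE 0.15, adjusted p = 0.0243). Protein-coding transcripts held only 4.65% of that TPM. Its leading coding transcript was at 0.850, 1.07 and 0.500 TPM in controls and 0.305, 0.389, 1.51 and 0.651 TPM in shKmt2f libraries, with overlap, so the call of Gins2 rests on its non-coding transcripts. Cdc45 (chromosome 16, 18780447-18811987, minus strand), which joins GINS on the ring, was at 17.7, 14.1 and 17.7 TPM in controls and 10.3, 11.2, 10.7 and 10.9 TPM in shKmt2f libraries (-0.57, SE 0.14, adjusted p = 0.0332). The 4 shKmt2f libraries lay close together below the lowest control. None of the other 3 GINS genes was called. Gins1 measured 44.0, 35.6 and 35.2 TPM in controls and 27.0, 30.4, 22.4 and 32.5 TPM in shKmt2f libraries, lower without overlap (-0.44, adjusted p = 0.0905). Gins4 measured 26.0, 29.0 and 28.5 TPM in controls and 30.8, 29.4, 31.1 and 31.0 TPM in shKmt2f libraries, slightly higher without overlap (0.13, adjusted p = 0.427), and Gins3 had a fold change of 0.00 (95% interval -0.58 to 0.57). Among the kinase genes, Dbf4 (-0.32) and Cdc7 (0.06) were not called and overlapped between the groups.

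Of the 9 polymerase genes 3 fell, against 3.69% of all tested genes. Of the 9 fold changes 8 were negative (median -0.47), against 40.7% of all tested genes. Pole2 (chromosome 12, 69201773-69228195, minus strand) encodes the second subunit of polymerase epsilon, the main leading-strand enzyme. It was at 5.75, 5.44 and 5.24 TPM in controls and 2.58, 3.26, 2.34 and 3.14 TPM in shKmt2f libraries, 51.7% of control (-0.76, SE 0.15, adjusted p = 0.0205). The catalytic subunit Pole had 3.97, 5.00 and 5.48 TPM in controls and 2.25, 3.81, 2.54 and 3.89 TPM in shKmt2f libraries, without overlap but not called (-0.51, adjusted p = 0.114). In polymerase delta, which copies the lagging strand, the catalytic subunit and the second subunit both fell. Pold1 (chromosome 7, 44532746-44548849, minus strand) was at 38.6, 44.9 and 46.7 TPM in controls and 25.0, 32.6, 25.5 and 24.8 TPM in shKmt2f libraries (-0.67, SE 0.14, adjusted p = 0.0243). Pold2 (chromosome 11, 5872180-5878292, minus strand) was at 61.3, 73.5 and 69.4 TPM in controls and 35.4, 61.0, 40.1 and 38.7 TPM in shKmt2f libraries (-0.65, SE 0.18, adjusted p = 0.049), and shKmt2f replicate 2 stood just under the lowest control. The call of Pold2 was lost in 6 of the 7 fits that left out 1 library, all but that without shKmt2f replicate 2 (-0.82, adjusted p = 0.0289), and after the correction for GC content and length its fold change was -0.43 (adjusted p = 0.164). Of the TPM of Pold2, coding transcripts held 21.8%, and Pold2 was not called when only these were summed. Its leading coding transcript overlapped between the groups (-0.60, adjusted p = 0.133). Pold3, the third subunit measured, was at 25.1, 26.2 and 25.0 TPM in controls and 28.9, 30.5, 26.0 and 29.0 TPM in shKmt2f libraries, and the groups overlapped (0.16). The ratio of Pold1 to Pold3 was 1.54, 1.71 and 1.87 in controls and 0.866, 1.07, 0.983 and 0.854 in shKmt2f libraries, given as a description. Polymerase alpha, which makes the primers with primase, had no called gene. Pola2 was at 17.5, 16.7 and 20.0 TPM in controls and 10.4, 13.7, 13.7 and 13.2 TPM in shKmt2f libraries, and Prim1, the primase catalytic subunit, at 20.4, 29.7 and 20.5 TPM and 15.5, 18.9, 16.7 and 16.8 TPM. Both were lower without overlap (-0.47 and -0.43, adjusted p = 0.0621 and 0.104), while Prim2 (-0.20) and the catalytic subunit Pola1 (-0.15) overlapped. Pola1 had a fold change of 0.51 when only its coding transcripts were summed, which held 17.9% of its TPM.

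Pcna was the only called gene of 6 that encode the sliding clamp and its loader, against 3.69% of all tested genes called lower. Pcna (chromosome 2, 132249162-132253314, minus strand), the ring that tethers the polymerases to DNA, measured 95.1, 127 and 91.7 TPM in controls and 72.7, 80.3, 66.9 and 76.0 TPM in shKmt2f libraries (-0.48, SE 0.14, adjusted p = 0.0484). The groups did not overlap, but the call was lost in each of the 7 fits that left out 1 library (adjusted p = 0.061 to 0.116). Of the TPM of Pcna, coding transcripts held 29.4%, and Pcna was not called when only these were summed. Its leading coding transcript was lower without overlap but not called (-0.39, adjusted p = 0.171). The loader is replication factor C. Rfc2 was at 99.1, 94.5 and 107 TPM in controls and 76.7, 92.8, 79.8 and 82.4 TPM in shKmt2f libraries, lower without overlap (-0.27, adjusted p = 0.113), and Rfc5 (-0.26), Rfc3 (-0.09), Rfc4 (-0.01) and Rfc1 (0.34) overlapped. Coding transcripts held 1.24% of the TPM of Rfc2 and 2.29% of that of Rfc3, so these sums describe mostly short non-coding transcripts. The coding transcript of Rfc2 stood at 1.19, 1.12 and 1.24 TPM in controls and 1.03, 1.15, 0.882 and 1.25 TPM in shKmt2f libraries, with overlap.

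No gene for the single-strand binding protein RPA, for flap removal and ligation or for fork protection was called. Rpa2 was at 57.7, 62.3 and 59.3 TPM in controls and 39.3, 50.3, 41.9 and 52.9 TPM in shKmt2f libraries, lower without overlap (-0.38, adjusted p = 0.0831), and Rpa3 (-0.24) and Rpa1 (-0.12) overlapped. Fen1, the flap nuclease, had a fold change of -0.16. Lig1, which seals the fragments of the lagging strand, measured 12.9, 27.8 and 20.8 TPM in controls and 15.5, 17.7, 12.5 and 16.4 TPM in shKmt2f libraries, a fold change of -0.33 with a 95% interval from -0.88 to 0.22. Timeless, which with Tipin steadies a stalled fork, was at 55.2, 53.6 and 60.4 TPM in controls and 44.9, 38.4, 42.1 and 48.5 TPM in shKmt2f libraries, lower without overlap (-0.37, adjusted p = 0.0644), while Tipin had -0.04 (95% interval -0.40 to 0.32). Coding transcripts held 15.6% of the TPM of Timeless.

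Chromatin assembly factor 1 (CAF-1) places new histones behind the fork, and 1 of its 2 listed subunits fell, against 3.69% of all tested genes. Chaf1b (chromosome 16, 93883901-93906115, plus strand) was at 31.9, 39.4 and 34.2 TPM in controls and 20.2, 25.4, 21.2 and 22.5 TPM in shKmt2f libraries (-0.63, SE 0.13, adjusted p = 0.0247), without overlap. Chaf1a, the large subunit, was at 7.18, 10.9 and 11.2 TPM and 6.81, 11.5, 6.96 and 8.49 TPM, with overlap (-0.19, 95% interval -0.69 to 0.31).

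In nucleotide supply 3 of 5 genes fell, against 3.69% of all tested genes, and the median was -0.58. Among the 3 was Rrm2, which had the largest decrease of the 53 genes. Rrm2 (chromosome 12, 24708241-24714146, plus strand) encodes the small subunit of ribonucleotide reductase, the enzyme that makes deoxyribonucleotides, and its level is known to be high in S phase. It measured 35.6, 43.0 and 41.6 TPM in controls and 17.4, 20.8, 15.8 and 23.8 TPM in shKmt2f libraries. All 4 shKmt2f libraries were below the lowest control, at 48.6% of the control mean (-1.02, SE 0.16, adjusted p = 0.0129). The large subunit Rrm1 was not called. It was at 83.9, 121 and 114 TPM in controls and 111, 139, 113 and 123 TPM in shKmt2f libraries, with overlap (0.20, 95% interval -0.14 to 0.54). The ratio of Rrm2 to Rrm1 was 0.424, 0.355 and 0.365 in the controls and 0.157, 0.150, 0.139 and 0.194 in the shKmt2f libraries. Every shKmt2f ratio was below every control ratio.

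Dut (chromosome 2, 125247190-125258608, plus strand) encodes the enzyme that removes dUTP, and it was at 67.1, 53.0 and 55.2 TPM in controls and 35.2, 35.8, 34.6 and 40.3 TPM in shKmt2f libraries (-0.66, SE 0.12, adjusted p = 0.0185). Tyms (chromosome 5, 30058202-30073617, minus strand), thymidylate synthase, was at 114, 92.8 and 93.1 TPM and 59.5, 67.0, 59.2 and 81.9 TPM (-0.58, SE 0.14, adjusted p = 0.0364). In both genes every shKmt2f library was below every control. The decrease of Tyms was not seen in its 3163-base coding transcript, the only coding one over 600 bases, which stood at 4.91, 5.94 and 6.44 TPM in controls and 5.63, 5.58, 4.28 and 6.63 TPM in shKmt2f libraries, with overlap (-0.06, adjusted p = 0.888). All coding transcripts of Tyms held 63.6% of its TPM, and Tyms was called lower when only these were summed. Shorter coding transcripts of 447 and 559 bases were lower in the authors' deposited test (q = 0.00685 and 0.0233). The call of Tyms was lost when transcripts were weighted by length (-0.45, adjusted p = 0.0546), after the GC correction (-0.61, adjusted p = 0.0508) and after that of GC content and length (-0.52, adjusted p = 0.0563). Tk1, thymidine kinase, measured 23.5, 23.6 and 26.0 TPM in controls and 11.5, 18.6, 14.8 and 20.0 TPM in shKmt2f libraries, also without overlap, but was not called (-0.58, adjusted p = 0.0708). Rrm2 and Tk1 have near-identical pseudogene copies in the tables with which reads may be shared. The 193-base copy RP23-320I11.5 was 98.4% identical to Rrm2 transcript sequence and stood at 313 ± 27.7 TPM in controls and 149 ± 20.5 TPM in shKmt2f libraries, a fold change of -1.07 (adjusted p = 0.00605), like that of Rrm2 itself. With the copies added, Rrm2 had a fold change of -1.07 (adjusted p = 0.00479). The 165-base copy of Tk1, Gm6091 (99.4% identical), was at 201 ± 47.1 TPM and 148 ± 38.9 TPM, and with it added Tk1 had a fold change of -0.47 (adjusted p = 0.175).

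**Figure D4:**
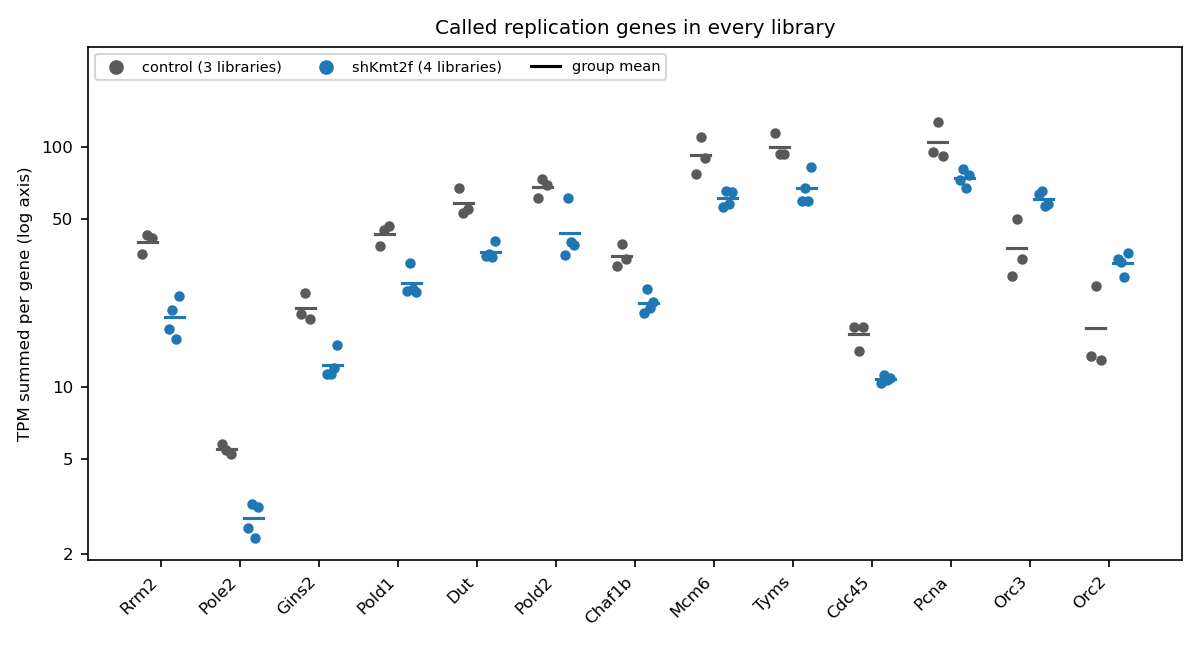
TPM summed per gene (y axis, log scale) of the 13 called genes in each of 3 control (grey) and 4 shKmt2f (blue) libraries; short lines are group means. For Rrm2 the controls lie between 35.6 and 43.0 TPM and the shKmt2f libraries between 15.8 and 23.8 TPM, and for Orc2 and Orc3 control replicate 2 lies between the other controls and the shKmt2f libraries.

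By role, the summed TPM of the 9 polymerase genes was 203 to 230.0 in controls and 144 to 188.5 in shKmt2f libraries, and that of the 5 nucleotide supply genes 324 to 333 and 234 to 288.5. The 6 clamp and loader genes summed to 475 to 500.4 TPM in controls and 383 to 450.3 TPM in shKmt2f libraries. None of these ranges overlapped. The Mcm2-7 genes did overlap, at 444 to 574 TPM in controls and 374 to 501 TPM in shKmt2f libraries. The 6 ORC genes summed to 146 to 253 TPM in controls and 264 to 292 TPM in shKmt2f libraries, with the shKmt2f libraries as the higher group. As a mean deviation in log2 units from each gene's own mean over the 7 libraries, polymerase genes stood at 0.18, 0.30 and 0.23 in the controls and at -0.31, 0.00, -0.27 and -0.12 in the shKmt2f libraries. The nucleotide supply genes stood at 0.28, 0.31 and 0.32 in controls and at -0.40, -0.12, -0.37 and -0.01 in shKmt2f libraries. In most roles shKmt2f replicates 1 and 3 were lowest, and replicates 2 and 4 were nearer to the controls.

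**Figure D5:**
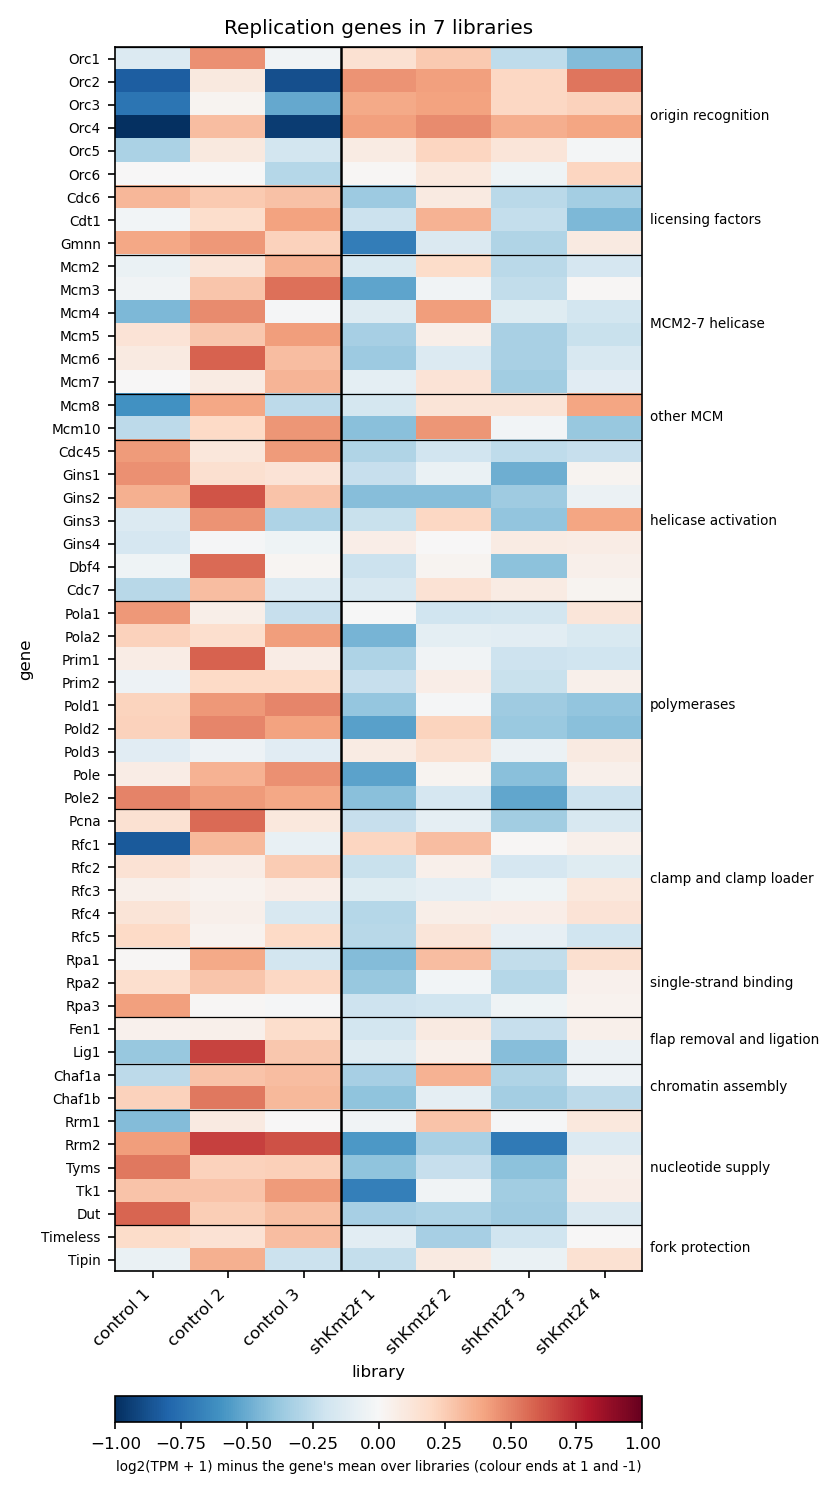
Each row is 1 of the 53 genes by role and each column 1 of the 7 libraries; colour is the log2(TPM + 1) value minus that gene's mean over all 7, with the colour scale ending at 1 and -1. Most polymerase and nucleotide supply rows are above their mean in the controls, Orc2, Orc3 and Orc4 are above it in the shKmt2f libraries, and control replicate 2 is on average above the mean in all 3 roles.

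Single libraries decided many of the calls. Leaving out 1 library at a time left between 1 and 10 of the 53 genes called lower, and the genes called differed. Rrm2 was the one gene called in all 7 of these fits (adjusted p = 0.00834 to 0.0474). Without control replicate 2 there were 10 called lower and 3 higher, against 4.62% and 19.7% of all tested genes, and Pcna and Pold2 were not called. In the other 6 fits 1.06% to 1.63% of all tested genes were called lower and 1.16% to 2.83% higher. Without control replicate 1 the genes called lower were Mcm6, Pold1 and Rrm2, and without control replicate 3 they were Dut and Rrm2. Without shKmt2f replicate 1 or replicate 3 only Rrm2 was called. Without shKmt2f replicate 2 the genes were Chaf1b, Pold1, Pold2, Pole2 and Rrm2, and without replicate 4 they were Dut, Gins2, Pole2, Rrm2 and Tyms. The number of called genes among all those tested moved as well, from 1755 with all libraries to between 283 and 3004. The 11 genes called lower kept a negative fold change in all 7. Scaling the libraries by the median of gene ratios shifted the median of all genes from 0.09 to -0.02 and left 22 members called lower (6.65% of all tested genes) and Orc2 and Orc3 higher (9.02%); higher calls were then 57.6% of all calls, against 73.8%.

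At the level of single transcripts, the 53 genes had 244 transcripts in the tables, of which 113 were protein-coding and 81 retained an intron. Of the 180 tested, 2 were called lower and 1 higher, against 0.794% and 1.44% of all 37024 transcripts tested. The 2 were the main coding transcripts of Rrm2 (ENSMUST00000020980.11, 2193 bases, 29.2, 35.4 and 34.3 TPM in controls and 11.3, 15.7, 13.1 and 18.3 TPM in shKmt2f libraries, -1.14, adjusted p = 0.0306) and of Dut (ENSMUST00000082122.13, 1020 bases, -0.67, adjusted p = 0.0423). The 1 was a 666-base non-coding transcript of Orc4 (1.07, adjusted p = 0.0409). A further 58 member transcripts had an unadjusted p under 0.05, a cut at which the share of all transcripts was not computed. Leaving out 1 library left 0 or 1 member transcript called, except without control replicate 2, when 18 were called. The shares of all transcripts called in these fits are not given here. At the level of genes, the fit without control replicate 2 called 3004 of all those tested, the most of these fits. Among the leading coding transcripts, 40 of 53 had a lower mean in the shKmt2f libraries, and the group ranges did not overlap in 20 that were lower and 2 that were higher. The matching shares over all coding transcripts were not computed, so these counts only describe the members. In 20 genes coding transcripts held under 50% of the summed TPM. The authors' deposited table, made with another method on the same libraries, has 25 member transcripts of 19 genes lower and 3 transcripts of 2 genes (Orc4 and Orc2) higher at a q under 0.05, against 2.09% and 3.43% of its 55404 transcripts. In the authors' deposited table the Rrm2 transcript has the smallest q of these, 2.68e-11.

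A list of other replication genes had 51 entries, of which 50 were in the tables and tested. These cover initiation factors, other fork proteins, alternative clamp loaders, histone chaperones and other nucleotide enzymes. Of the 50, 1 fell and 2 rose, against 3.69% and 10.4% of all tested genes, and the median fold change was -0.02. Pclaf, which encodes a small protein that binds PCNA, was at 23.3, 23.3 and 20.9 TPM in controls and 8.28, 13.8, 11.9 and 16.5 TPM in shKmt2f libraries (-0.82, SE 0.21, adjusted p = 0.038). Fancm, a DNA translocase at stalled forks, was at 7.38, 8.02 and 8.33 TPM in controls and 17.9, 20.7, 12.9 and 19.9 TPM in shKmt2f libraries (1.06, adjusted p = 0.0144). Supt16, a subunit of the histone chaperone FACT, was at 12.8, 31.9 and 16.4 TPM and 38.5, 44.0, 33.7 and 38.0 TPM (0.98, adjusted p = 0.0444), with control replicate 2 again the highest control. Without that library Supt16 had a fold change of 1.34 (adjusted p = 0.00128), Fancm 1.07 (adjusted p = 0.00834) and Pclaf -0.80, which was not called (adjusted p = 0.0524). None of the 3 overlapped between groups. Leaving out 1 library at a time left 0 to 2 of the 50 lower and 0 to 6 higher. The 2 and the 6 were found without control replicate 2, in a fit that called 4.62% of all tested genes lower and 19.7% higher.

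Some other genes of dividing cells and of other retinal cell types also differed between the groups. Among all tested genes 3.69% were called lower, 10.4% were called higher and 40.7% had a negative fold change. Of 18 mitosis genes 10 fell and none rose (median -0.74), with a summed TPM of 1553 to 1681 in controls and 656 to 1016 in shKmt2f libraries. For example, Ccnb1 had a fold change of -1.40 (adjusted p = 0.00617), a larger decrease than in any of the 53 genes, and Cdk1 one of -0.81 (adjusted p = 0.0312). Coding transcripts held 87.8% of the TPM of Ccnb1 and 17.0% of that of Cdk1. Of 18 G1-S regulators, Ccnd1 fell (-0.98, adjusted p = 0.00605) and Rb1 rose (0.74, adjusted p = 0.0347), and the median was -0.05. Coding transcripts held 35.8% of the TPM of Ccnd1 and 5.49% of that of Rb1, so the sum of Rb1 describes mostly non-coding transcripts. Of 14 retinal progenitor markers 3 fell (Ccnd1, Hes5 and Dapl1; median -0.35), and the summed TPM of the list was 1606 to 2144 in controls and 1305 to 1507 in shKmt2f libraries. Of 8 tested photoreceptor markers 3 rose (Prdm1, Otx2 and Crx), 4 had a negative fold change, and the median was 0.28. The summed TPM of the photoreceptor list was 440.1 to 549.5 in controls and 684 to 911.5 in shKmt2f libraries. Otx2 alone had a mean of 370 TPM in controls and 558 TPM in shKmt2f libraries. Of 12 ganglion cell markers 7 were tested and 6 rose, Gap43 among them, and the median was 0.95. Of the 6, Nefl was at 0.745, 1.17 and 0.506 TPM in controls and Isl1 at 0.720, 1.345 and 1.99 TPM. Both passed the filter on low values only with the help of the shKmt2f libraries, so counts with them lean toward higher. Pou4f1, Pou4f2, Ebf3, Sncg and Rbpms were too low to be tested, with group means of at most 0.858 TPM. Sncg and Ebf3 had the lower mean in the shKmt2f libraries, the others the higher. The summed TPM of the ganglion cell list was 74.8 to 115.0 in controls and 114 to 142.5 in shKmt2f libraries. The amacrine and horizontal cell list had 2 of 8 tested genes higher, Tfap2b and Onecut1. Onecut1 was at 0.861, 0.503 and 0.393 TPM in controls and passed the filter only through the shKmt2f libraries. Onecut2, not called, passed in the same way. In the Mueller glia list 1 of 4 was lower (Glul), the only negative fold change of that list, and the median was 0.34. Of 2 tested endothelial markers none was called, and 1 tested marker of the pigment epithelium, Dct, rose (0.65). None of the 6 red blood cell markers and 1 of 8 microglia markers were in the tables, and lens markers summed to at most 0.502 TPM. The part of cell composition in the replication gene values was not tested.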

How the data were processed

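RNA of sorted cells was turned into cDNA with SMART-Seq v4 from 1 ng of total RNA and made into libraries with the Nextera DNA Flex kit, per the labels' protocols. Per the submitters' processing notes, Salmon 0.11.3, sleuth 0.30.0 and genome build GRCm38.p6 were used. The authors deposited TPM values per transcript for each library, with a table of their own transcript test, whose p-value and q-value columns and effect estimate b (read as a natural log, the tool's convention; only its sign is used) are identical in all 7 files. TPM totals were 991445 to 992309 per library, and TPM keeps no read depth.

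Of 55475 rows, 71 without a TPM value were left out. TPM was summed by gene identifier, and the members were then looked up by symbol. A gene was kept if 3 or more libraries reached 1 TPM. The log2(TPM + 1) values were tested with limma 3.58.1 (R 4.3.3, trend and robust variance), control against shKmt2f, with p adjusted over all genes. The script was tested on simulated data. GC content, transcript lengths and gene coordinates came from the GENCODE vM21 annotation (GRCm38), and pseudogene copies from blastn 2.17.0 (at least 90% identity over 50% of the copy). Transcript types were those given in the deposited tables. The GC correction was a loess curve per library (span 0.3), which also centres each library. Alternatives changed the pseudocount (0.1), filter, scaling, GC and length correction, replicate block, transcripts summed, pseudogene copies and the libraries left out. Values per library are given for members past the threshold, for members whose group ranges do not overlap, and otherwise for the member with the largest change in its role. The members and lists were chosen with earlier results of these data known. The 9 members with no match in the promoter table were Tipin, Mcm4, Gins4, Prim2, Pole, Rfc2, Gmnn, Gins2 and Gins1.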

Additional observations from a re-analysis of the deposited data

Results flagged for a closer look

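In 4 members 1 shKmt2f library stood apart from the other 3, by a gap divided by the group's range above Dixon's critical value for 4 libraries. The ratio was 0.918 for Mcm4 (shKmt2f replicate 2 the highest), 0.903 for Pold1 (replicate 2 the highest), 0.841 for Gins4 (replicate 2 the lowest) and 0.835 for Pola2 (replicate 1 the lowest). Of 53 groups tested, chance alone flags about 1 in 20. Without shKmt2f replicate 2 the fold change of Pold1 was -0.76 and was still called (adjusted p = 0.022).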

How the results depend on the processing

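The counts of called genes depended on the libraries used and on scaling, and the cause was not tested. Leaving out 1 library at a time gave 283 to 3004 called genes in all, 1 to 10 members lower, 0 to 3 members higher, 0 to 8 other replication genes and 0 to 18 member transcripts. With median-ratio scaling 22 members were lower, 5 other replication genes and 9 member transcripts were called. With the GC correction 17 members were lower, 0 higher and 5 other genes were called, and with GC and length 20, 1 and 6. Without a filter on low values 1 member was higher, against 5.69% of the genes then tested, and 1 other gene and 1 member transcript were called. A pseudocount of 0.1 left 1 member transcript. Summing only coding transcripts, or weighting by length, each gave 5 called other replication genes. The difference of the Setd1a longest transcript, taken on log2(TPM + 0.1) for its low level, was -0.94 with all libraries and -0.99 to -0.84 when 1 library was left out, where the smallest exact p possible is 0.0667 or 0.1.

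Replicate numbers with the same value in both groups correlated at 0.079, 0.065 and 0.06 in their deviations from the group means, so the numbers were not taken to pair the libraries. With the replicate number as a block 9 members were lower and 3 higher, against 2.67% and 8.38% of all tested genes. With this block 1377 genes were called in all, and 0 member transcripts were called.

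The sign changed only in members that were not called. Leaving out 1 library at a time, the fold changes ranged from -0.28 to 0.02 for Orc1, -0.24 to 0.23 for Mcm4, -0.16 to 0.22 for Gins3, -0.31 to 0.02 for Pola1, -0.06 to 0.23 for Cdc7, -0.10 to 0.08 for Rfc4, -0.25 to 0.03 for Rpa1 and -0.16 to 0.12 for Tipin. Orc1 was 0.03 with coding transcripts and 0.01 with length weights. Mcm4 was 0.05 with the replicate block and 0.01 with length weights. With the GC correction and with GC and length, Orc5 was -0.22 and -0.27, Orc6 -0.21 and -0.13, Cdc7 -0.27 and -0.34 and Rrm1 -0.02 and -0.07, and Mcm8 was -0.07 with GC and length. Cdc7 was also -0.06 with median-ratio scaling and Gins3 0.18 with length weights. Pola1 was 0.51 with coding transcripts and 0.28 with length weights.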
